A study of Mus musculus with 10 samples.

Results

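The genes described here are components of the canonical Wnt pathway together with Dkk1, its secreted inhibitor, and they were chosen by symbol: Dkk1, Ctnnb1, Axin1, Axin2, Apc, Lef1, Tcf7, Tcf7l1, Fzd7 and Lrp6. Of these 10 symbols, 9 are rows of the ribosome footprint count table, which holds 11011 genes, and all 9 passed the filter on low counts. Lef1 was not analysed here. Footprints, the stretches of mRNA that a translating ribosome protects from nuclease, were counted in 10 libraries of E14, a mouse embryonic stem cell line of 129/Ola background. There were 2 libraries for each of 5 genotypes: Dgcr8 knockout, Drosha knockout, Dicer knockout, Ago1 and Ago2 double knockout, and wild type (WT). All cells were grown in serum with LIF on gelatine and received cycloheximide before lysis. The labels give neither the number of clones behind a genotype nor the position of the deletions. Footprints follow both the amount of an mRNA and its translation, and no measurement of the mRNA was used here.

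In the canonical pathway a secreted Wnt protein binds a Frizzled receptor such as Fzd7 together with the co-receptor Lrp6. Without Wnt, the scaffolds Axin1, Axin2 and Apc hold beta-catenin, the product of Ctnnb1, in a complex that marks it for destruction. With Wnt the complex is held at the membrane, beta-catenin enters the nucleus and binds the DNA-binding factors Tcf7, Tcf7l1 and Lef1. Dkk1 binds Lrp6 and blocks it. In mouse embryonic stem cells Tcf7l1 is known mainly as a repressor of self-renewal genes, and beta-catenin also serves at cell junctions. In the early mouse embryo Dkk1 is made by the visceral endoderm, which descends from the primitive endoderm. Drosha and Dgcr8 make miRNA precursors in the nucleus, Dicer cuts them to mature miRNAs, and Ago1 and Ago2 carry those to their targets.

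Total counts ran between 1754710 and 80850950 per library, so low genes were measured less precisely in the shallower libraries, which were those of Drosha and Dicer and replicate 2 labelled Dgcr8 knockout. Drosha had 24.3 and 34.5 CPM (read counts scaled to a common library size) in Drosha knockout, against 177 and 178 CPM in WT. Dicer1 had 15.8 and 22.1 CPM in Dicer knockout, against 122 and 124 CPM in WT. Ago2 had 14.9 and 6.61 CPM with the Ago1 and Ago2 double knockout label, against 81.9 and 81.9 CPM in WT, while Ago1 had 27.0 and 10.7 CPM there, against 14.7 and 14.3 CPM in WT. Ago1 was thus not lower in both libraries, against the label, and these libraries are named by it. Dgcr8 went against its label, with 145 and 146 CPM in the libraries labelled Dgcr8 knockout, against 32.7 and 33.1 CPM in WT. The rise was not limited to that label. Dgcr8 had 169 and 197 CPM in Drosha knockout, 64.5 and 76.1 CPM in Dicer knockout, and 74.6 and 63.5 CPM with the Ago1 and Ago2 double knockout label. Footprints outside a deleted part would not check a label, and where the deletions lie is not known here. Replicate 1 labelled Dgcr8 knockout also correlated more closely with WT replicate 1 (Pearson 0.959 in log2 CPM across genes) than with its own replicate 2 (0.928). Summed over the 10 pluripotency markers listed, CPM ran between 3621 and 4750 in the 8 knockout libraries, and was 4963 and 5105 in WT. The markers did not all move alike. Pou5f1 had 651 to 920 CPM in the knockout libraries, against 770 and 680 in WT, and Nanog had 494 to 720, against 597 and 606. Dppa4 was above WT in every knockout library (36.4 to 91.4 CPM, against 28.9 and 34.3). Klf4 was below WT in every one (17.4 to 71 CPM, against 135 and 158).

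Few of the 9 genes passed a test against WT. A gene was called where its adjusted p was under 0.05 by edgeR's quasi-likelihood test fitted to all 10 libraries. The Benjamini-Hochberg adjustment was over the 10978 genes tested. No member was called with the libraries labelled Dgcr8 knockout, where 0.0729% of all genes were, in Drosha knockout (3.44% of all genes) or with the Ago1 and Ago2 double knockout label (2.88%). At an unadjusted p under 0.05 there were 2 members in each of these 3 comparisons. DESeq2 also called 0 in each, and limma-voom called 0 with the Dgcr8 label and in Drosha and 1 with the double knockout label, where it called 8.58% of all genes. In Dicer knockout 1 of 9 was called, Tcf7, beside 11.1% of all genes, so the members' share was that of the background. DESeq2 called 3 there, beside 17.1% of all genes, and limma-voom called 0, beside 9.52%. Against WT, the mean of the 4 knockout groups called 1 of 9, Dkk1, where 7.07% of all genes were called. The 4 knockout groups did not differ among themselves in any member at the threshold, where 2.23% of all genes did, and 2 members had an unadjusted p under 0.05, with 0 called by DESeq2 or limma-voom.

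The number of members whose knockout libraries all lay on 1 side of WT was also read against all genes. With the Dgcr8 knockout label, 1 member lay above both WT libraries and 4 below, where 22.0% and 22.9% of all genes did. In Drosha knockout 1 lay above and 5 below, beside 25.9% and 27.9% of genes. In Dicer knockout 3 lay above and 4 below, beside 32.7% and 34.6%. With the Ago1 and Ago2 double knockout label 2 lay above and 5 below, beside 27.2% and 26.1%. Over all 8 knockout libraries together, Tcf7l1 lay above WT in every library and Dkk1, Fzd7 and Tcf7 lay below WT in every library, beside 8.15% of genes above and 8.05% below. The 4 comparisons share the same 2 WT libraries, so these counts are not separate evidence. The median log2 fold change of the 9 members was -0.06 with the Dgcr8 knockout label, -0.39 in Drosha, -0.20 in Dicer and -0.44 with the Ago1 and Ago2 double knockout label. Over all genes it was 0.02, -0.01, -0.00 and 0.04 in the same order. With Dkk1 set at its bound the Drosha median was also -0.39. It could not change, because Dkk1 stays the lowest of the 9.

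**Figure D1:**
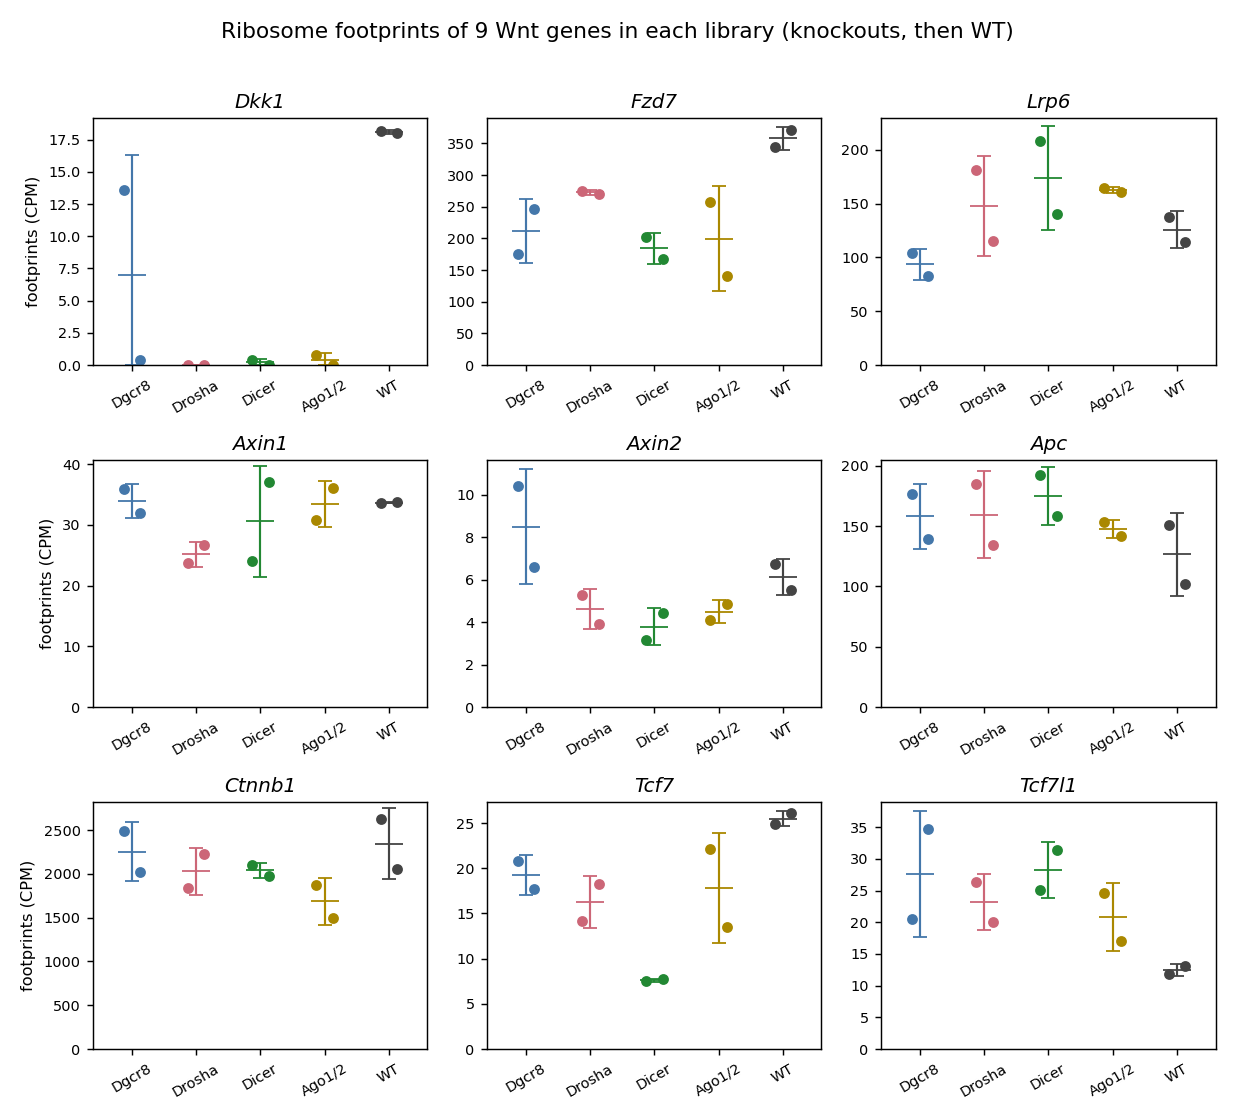
Footprints of the 9 genes in CPM on scaled library sizes (vertical axes, each from 0), by group, with knockouts at the left and WT at the right of each panel. Points are libraries, the long line is the mean of 2 and the bars are the SD, cut at 0 for Dkk1, which had 13.6 and 0.398 CPM in the libraries labelled Dgcr8 knockout and 18.2 and 18 CPM in WT.

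Dkk1, the secreted inhibitor, was nearly without footprints in 7 of the 8 knockout libraries. Its gene lies on chr19:30545863-30549665 of GRCm38, minus strand. Raw counts were 1120 and 2 in the libraries labelled Dgcr8 knockout, 0 and 0 in Drosha knockout, 2 and 0 in Dicer knockout, then 11 and 0 with the Ago1 and Ago2 double knockout label, against 197 and 433 in WT. On scaled library sizes this was 13.6 and 0.398 CPM with the Dgcr8 label, 0 and 0 in Drosha, 0.395 and 0 in Dicer, then 0.778 and 0 with the double knockout label, against 18.2 and 18 CPM in WT. Every knockout library was below both WT libraries, and replicate 1 labelled Dgcr8 knockout was the only one near them. A count of 0 allows up to 3 counts, which is 1.58 and 1.31 CPM in the Drosha libraries, 1.65 CPM in Dicer replicate 2 and 0.0889 CPM in replicate 2 of the double knockout label, for counting error only. In these bulk samples fewer cells of a type that makes Dkk1 and less Dkk1 RNA or translation per cell cannot be told apart.

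Dkk1 was at least 25.1-fold lower in Drosha knockout than in WT, taking 3 counts over the 2 libraries as the floor. In Dicer knockout, with 2 counts in all, the pooled level in WT was 61.9 times higher, with an exact 95% interval of 17.1 to 512. With the Ago1 and Ago2 double knockout label, with 11 counts, it was 78.5 times higher (43.5 to 158). All 11 counts were in replicate 1 of that label, for which the ratio was 23.2 (12.9 to 46.6). Replicate 2, with 0 counts, was at least 203-fold lower than pooled WT, so the pooled interval does not describe these libraries singly. The libraries labelled Dgcr8 knockout were unlike each other: the ratio of pooled WT to replicate 1 was 1.33 (1.2 to 1.47) and to replicate 2 was 45.2 (12.5 to 374). These intervals cover counting error only, and PCR copies are not independent molecules.

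By edgeR's quasi-likelihood test fitted to all 10 libraries, no single knockout passed for Dkk1. The adjusted p was 0.79 with the Dgcr8 label, 0.10 in Drosha, 0.065 in Dicer and 0.073 with the double knockout label (n = 2 libraries per group). Fitted to only the 2 groups compared, the same test passed in Drosha (0.0067), Dicer (5.6e-05) and with the double knockout label (0.015). It did not pass with the Dgcr8 label. With limma-voom the double knockout label passed (0.037). In the edgeR fit of all 10 libraries the mean of the 4 knockout groups fell below WT with an adjusted p of 0.017. The test among the knockouts gave 0.16. The fitted size of that change is not given, because the Drosha group is at 0 and the fit then depends on its prior count. The mean's adjusted p was 0.088 without WT replicate 1, 0.17 without WT replicate 2 and 0.098 with DESeq2, within 0.0032 to 0.17 over 18 alternatives. Without replicate 1 labelled Dgcr8 knockout, the Drosha comparison stayed above the threshold, the Dicer comparison gave 0.030 and the double knockout label gave 0.031. Without replicate 2 of that label these were 0.046, 0.027 and 0.027. Without replicate 1 or 2 of the double knockout label the Dicer comparison gave 0.034 each time. Over all alternatives adjusted p ran from 0.0067 to 0.33 in Drosha, from 5.6e-05 to 0.28 in Dicer and from 0.015 to 0.33 with the double knockout label.

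Primitive endoderm markers moved across the libraries with Dkk1. Their summed CPM over the 9 markers tested was 3644 and 344 in the libraries labelled Dgcr8 knockout, 485 and 604 in Drosha, 390 and 279 in Dicer, then 613 and 466 with the double knockout label, against 6606 and 7506 in WT. The library with 13.6 CPM of Dkk1 was thus also the knockout library with the most of these markers. None of the 9 markers was called lower with the Dgcr8 label, 5 were in Drosha, 8 in Dicer and 8 with the double knockout label, and all 9 were in the mean of the knockouts. Over all genes 0.0182%, 0.966%, 3.76%, 0.902% and 3.26% were called lower, in that order. Gata6 and Sox17, transcription factors that define this lineage, were at 0 in at least 1 knockout library. The part of these cells in the level of Dkk1 was not tested.

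The genes whose pattern over the 10 libraries was most like that of Dkk1 were Glipr1, Klb, Bmper, Ctsh and Srgn. Likeness was the root mean square difference in log2 CPM after each gene was centred on its own mean. It was 0.962 for Glipr1, 1.05 for Klb, 1.08 for Bmper, 1.09 for Ctsh and 1.15 for Srgn, while the median over all genes was 3.03. Klb encodes a co-receptor for endocrine FGF hormones, Bmper a secreted BMP-binding protein, Ctsh a lysosomal protease and Srgn a granule proteoglycan. Each was high in replicate 1 labelled Dgcr8 knockout and in WT and lower elsewhere. Klb, for example, had 38.5 and 0.598 CPM with the Dgcr8 label, 0.528 and 0.437 in Drosha, 5.73 and 0 in Dicer, then 1.06 and 0.504 with the double knockout label, against 55.7 and 56.2 CPM in WT. Among the primitive endoderm markers, the receptor gene Pdgfra ranked 6 of 10977 genes by likeness to Dkk1, the endocytic adaptor gene Dab2 ranked 16 and Sox17 ranked 19. Gata6 ranked 90 and Gata4 ranked 109. The points share their libraries and depth, and the likeness is a description.

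**Figure D2:**
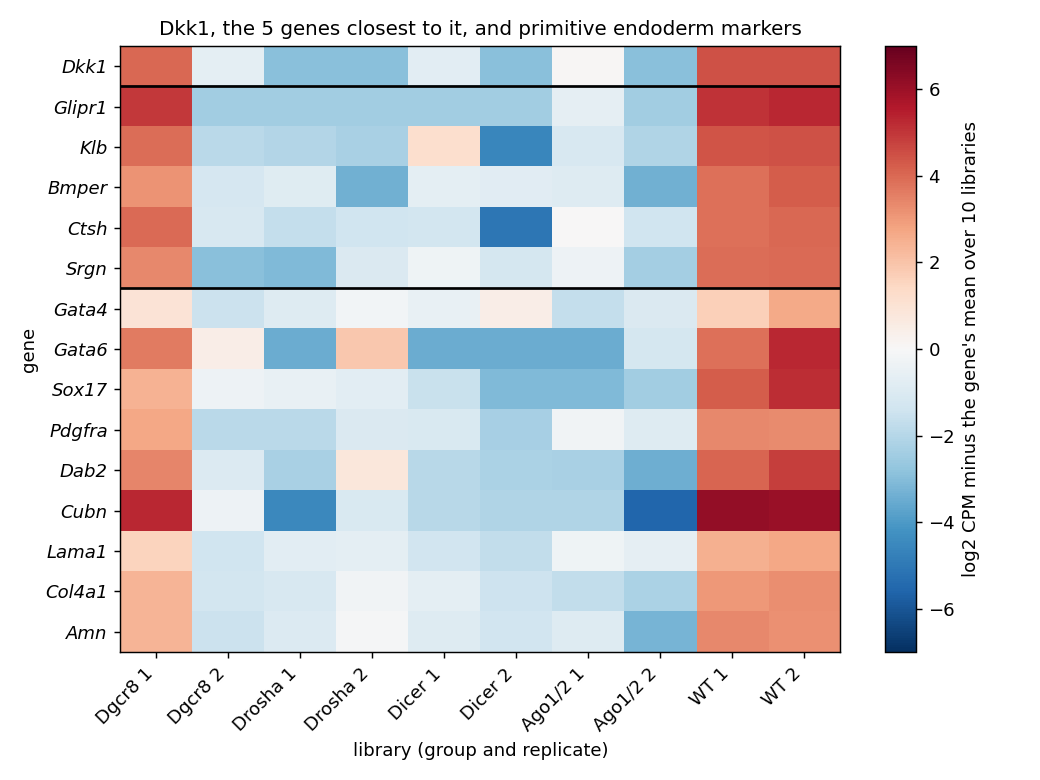
Log2 CPM of Dkk1, of the 5 genes closest to it and of 9 primitive endoderm markers (rows) in each library (columns, knockouts at the left and WT at the right), as the difference from each gene's mean over the 10 libraries. Red is above and blue below that mean. The first column and the last 2, which hold 13.6, 18.2 and 18 CPM of Dkk1, lie above the mean in all rows.

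Among the receptors, Fzd7, the Frizzled on chr1:59482424-59486955, plus strand, lay below WT in every knockout library. It had 176 and 247 CPM with the Dgcr8 label, 275 and 270 in Drosha, 202 and 167 in Dicer, then 258 and 141 with the double knockout label, against 345 and 371 CPM in WT. The highest knockout library was thus below the lower WT library. Log2 fold changes were -0.76 (SE 0.32) with the Dgcr8 label, -0.39 (SE 0.32) in Drosha, -0.96 (SE 0.32) in Dicer and -0.85 (SE 0.32) with the double knockout label. In the fit of all 10 libraries none passed edgeR's quasi-likelihood test, with adjusted p of 0.46, 0.55, 0.076 and 0.17 in that order. The mean of the knockouts, at -0.74 (SE 0.24, adjusted p 0.084), did not pass either. In edgeR's fit of Dicer and WT alone the Dicer comparison passed (0.0069). The Dicer comparison passed at 0.037 without replicate 1 and at 0.038 without replicate 2 of the double knockout label, and with DESeq2 at 0.038, within 0.0069 to 0.31 over all alternatives. The mean passed at 0.030 without replicate 1 of the double knockout label and at 0.049 with DESeq2, within 0.030 to 0.53.

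Lrp6, the co-receptor that Dkk1 binds, showed no shift shared by the knockouts. The gene lies on chr6:134446476-134566965, minus strand. It had 104 and 83.1 CPM with the Dgcr8 label, 181 and 115 in Drosha, 208 and 140 in Dicer, then 165 and 161 with the double knockout label, against 138 and 114 CPM in WT. The libraries labelled Dgcr8 knockout were both below WT, those of Dicer and of the double knockout label were above, and the Drosha libraries overlapped WT. None of these differences passed edgeR's quasi-likelihood test. Log2 fold changes ran between -0.42 (SE 0.31, adjusted p 0.71) with the Dgcr8 label and 0.47 (SE 0.31, adjusted p 0.35) in Dicer.

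The scaffolds of the destruction complex gave no call in any knockout. Axin1, on chr17:26138688-26195811, plus strand, had 35.9 and 31.9 CPM with the Dgcr8 label, 23.7 and 26.6 in Drosha, 24.1 and 37.0 in Dicer, then 30.8 and 36.1 with the double knockout label, against 33.6 and 33.7 CPM in WT. Only the Drosha libraries lay both on 1 side of WT, below it, at a log2 fold change of -0.41 (SE 0.31, edgeR adjusted p 0.50). Axin2, which is also a well known Wnt target and feedback inhibitor, lies on chr11:108920349-108950783, plus strand. It had 10.4 and 6.57 CPM with the Dgcr8 label, 5.28 and 3.93 in Drosha, 3.16 and 4.41 in Dicer, then 4.10 and 4.86 with the double knockout label, against 6.73 and 5.52 CPM in WT. The libraries of Drosha, Dicer and the double knockout label were below both WT libraries, while those with the Dgcr8 label overlapped WT. The Axin2 log2 fold change was -0.42 (SE 0.54) in Drosha, -0.73 (SE 0.53) in Dicer and -0.44 (SE 0.48) with the double knockout label, with edgeR adjusted p of 0.72, 0.41 and 0.67. With the Dgcr8 label it was 0.49 (SE 0.48, adjusted p 0.81).

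Apc, on chr18:34220924-34322552, plus strand, had 177 and 139 CPM with the Dgcr8 label, 185 and 134 in Drosha, 192 and 158 in Dicer, then 153 and 142 with the double knockout label, against 151 and 102 CPM in WT. The WT libraries differed among themselves by about as much as the groups did, and only the Dicer libraries were both above WT. The Apc log2 fold change in Dicer was 0.48 (SE 0.30, edgeR adjusted p 0.33), and it was between 0.22 and 0.34 in the other knockouts.

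Ctnnb1, which encodes beta-catenin itself and lies on chr9:120929216-120960507, plus strand, was the most abundant member. It had 2493 and 2019 CPM with the Dgcr8 label, 1843 and 2222 in Drosha, 2104 and 1977 in Dicer, then 1879 and 1492 with the double knockout label, against 2631 and 2058 CPM in WT. Only the libraries labelled double knockout were both below WT, at a log2 fold change of -0.48 (SE 0.29, edgeR adjusted p 0.41). In the other groups it was -0.06 (SE 0.29), -0.21 (SE 0.29) and -0.20 (SE 0.29) for the Dgcr8 label, Drosha and Dicer. Of the genes listed as junction partners of beta-catenin, 6 of 7 were tested and edgeR called none in any comparison, with at most 1 at an unadjusted p under 0.05 in each. DESeq2 and limma-voom also called 0, and edgeR fitted to Dicer and WT alone called 2 of the 6, where it called 29.5% of all genes.

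**Figure D3:**
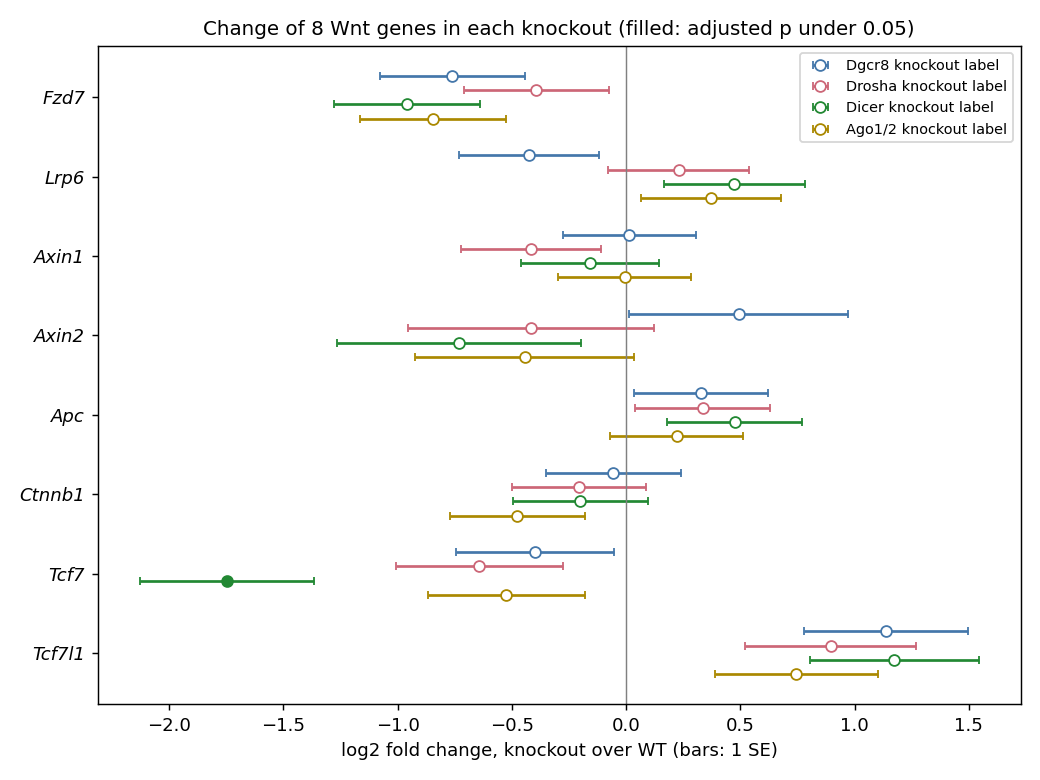
Log2 fold change, knockout over WT, of the 8 members other than Dkk1 (rows) in each knockout group (colours), with bars of 1 SE from the quasi-likelihood test. The filled point is the only one with an adjusted p under 0.05, Tcf7 in Dicer knockout at -1.75, and all 4 points of Tcf7l1 lie at the right of 0.

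The nuclear factors Tcf7 and Tcf7l1 lay on opposite sides of WT in every knockout library. Tcf7, known mainly as an activator of Wnt targets, lies on chr11:52252371-52283014, minus strand. It had 20.8 and 17.7 CPM with the Dgcr8 label, 14.2 and 18.3 in Drosha, 7.51 and 7.72 in Dicer, then 22.1 and 13.5 with the double knockout label, against 24.9 and 26.1 CPM in WT. The Dicer libraries were the lowest and stood apart from every other library. Tcf7 fell in Dicer knockout by 1.75 on the log2 scale (SE 0.38, edgeR adjusted p 0.015). It averaged 7.62 ± 0.147 CPM in Dicer knockout and 25.5 ± 0.878 CPM in WT (SD, n = 2 each). Raw counts were only 38 and 14 in the Dicer libraries, against 270 and 630 in WT. The small SD in Dicer therefore does not show how precisely the level was measured. In the other groups the log2 fold change was -0.40 (SE 0.35, adjusted p 0.78) with the Dgcr8 label, -0.64 (SE 0.37, adjusted p 0.37) in Drosha and -0.52 (SE 0.34, adjusted p 0.44) with the double knockout label. The test among the 4 knockout groups did not pass for Tcf7 (edgeR adjusted p 0.22). The Dicer call was lost without Dicer replicate 1 (adjusted p 0.13), Dicer replicate 2 (0.079), WT replicate 1 (0.073) or WT replicate 2 (0.12), and with limma-voom (0.056), while the log2 change stayed between -1.80 and -1.71 over all 18 alternatives. The mean of the knockouts, at -0.83 (SE 0.26, adjusted p 0.081), passed at 0.044 without replicate 1 of the double knockout label and also at 0.044 without the Dgcr8 label, within 0.044 to 0.53.

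Tcf7l1, the repressor, lies on chr6:72626378-72789254, minus strand. It had 20.6 and 34.7 CPM with the Dgcr8 label, 26.4 and 20.1 in Drosha, 25.1 and 31.4 in Dicer, then 24.7 and 17.1 with the double knockout label, against 11.8 and 13.1 CPM in WT. All 8 knockout libraries were above both WT libraries. With the Dgcr8 label the log2 fold change was 1.14 (SE 0.36) and edgeR gave an adjusted p of 0.33. Drosha followed at 0.90 (SE 0.37) with 0.22, Dicer at 1.17 (SE 0.37) with 0.062, and the double knockout label at 0.75 (SE 0.36) with 0.27. The mean of the knockouts was 0.99 above WT (SE 0.30, adjusted p 0.071). None of these passed the threshold. In edgeR's fit of Dicer and WT alone the Dicer comparison passed (adjusted p 0.0094). The Dicer comparison passed at 0.043 without replicate 1 and 0.046 without replicate 2 of the Dgcr8 label and at 0.028 with DESeq2, within 0.0094 to 0.27 over all alternatives. The mean passed at 0.037 without replicate 1 of the Dgcr8 label and at 0.020 with DESeq2, within 0.020 to 0.45.

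Since the knocked-out enzymes make or carry miRNAs, the longest annotated 3' UTR of each member was searched, on the transcript strand, for matches to 8 chosen miRNA families. A match was the 7 bases that pair with bases 2 to 8, the seed, of the miRNA. No measurement of miRNAs was used here, so which of these families the cells hold is not known here. At least 1 match was found in 7 of the 9 members, beside 60.9% of 10958 genes. Dkk1 and Fzd7 held none. Tcf7 held 1 match to the seed of miR-291a-3p (AGCACTT, in 18.4% of genes), which is shared by miR-294-3p, miR-295-3p, miR-302b-3p and miR-302d-3p. Tcf7l1 held 1 match to the seed of let-7a-5p (CTACCTC, in 11.8% of genes). Axin2 held 2 and Lrp6 held 3 matches to miR-16-5p (TGCTGCT, 27.2%). Ctnnb1 held 1 match to miR-92a-3p (GTGCAAT, 7.54%). Axin1 and Lrp6 held 1 each to miR-148a-3p (TGCACTG, 16.5%), and Apc held 2 and Lrp6 held 1 to miR-200b-3p (CAGTATT, 16.2%). Apc also held 1 to miR-26a-5p (TACTTGA, 11.9%). No member held a match to miR-17-5p (GCACTTT, 14.9%), whose motif overlaps that of miR-291a-3p. A match is a description of the letters and not a site shown to work.

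The miRNAs matched in Tcf7 and Tcf7l1 are each shown first, with the seed in capitals, then the match with the 7 paired bases in capitals. All are written 5′ to 3′. The miRNAs are from RefSeq on GRCm38.p6 (miR-291a-3p at chr7:3218968-3218989, plus strand, and let-7a-5p at chr13:48538239-48538260, minus strand). The matches are from GENCODE M21 transcripts on GRCm38, with capitals at chr11:52252461-52252467, minus strand, for Tcf7 and at chr6:72627001-72627007, minus strand, for Tcf7l1. The Ctnnb1 match, at chr9:120951104-120951110, plus strand, is shown as that of the most abundant member.
miR-291a-3p: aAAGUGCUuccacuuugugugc
Tcf7: acctataaccccAGCACTTgcgagatagag
let-7a-5p: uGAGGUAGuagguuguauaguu
Tcf7l1: ggagatatctctCTACCTCttctcttcctg
Ctnnb1: aacttgccacacGTGCAATtcctgagctga
Tcf7, with its match to the miR-291a-3p seed, was lower in Dicer knockout. Tcf7l1, with its match to let-7a-5p, lay above WT in all 8 knockout libraries, and Fzd7 and Dkk1, without a match, lay below. Ctnnb1, Axin1, Axin2, Apc and Lrp6 also held a match, and over all 8 knockout libraries each of them overlapped WT. The part of miRNAs in the levels of the members was not tested.

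Levels of different members were set side by side per length, as CPM per kb of coding sequence. In WT, Ctnnb1 led at 1001 ± 173 CPM per kb and Fzd7 followed at 209 ± 10.7 (SD, n = 2). Tcf7 at 28.1 ± 0.933, Lrp6 at 26.0 ± 3.51 and Dkk1 at 22.2 ± 0.173 CPM per kb came next, and the libraries of Tcf7 and Lrp6 overlapped. Apc at 14.8 ± 4.06 and Axin1 at 12.9 ± 0.0272 CPM per kb also overlapped, and Tcf7l1 at 6.93 ± 0.512 and Axin2 at 2.43 ± 0.340 CPM per kb were the lowest. Tcf7l1 was thus below Tcf7 in WT per length. In the Dicer libraries Tcf7l1 had 14.0 and 17.5 CPM per kb and Tcf7 had 8.26 and 8.49 CPM per kb, the other way round.

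The wider pathway was described with 6 lists: ligands and their secretion, secreted inhibitors, receptors, transducers, nuclear partners and targets. With the members, 76 of 121 genes listed were in the table and tested. None was called with the Dgcr8 label by edgeR, DESeq2 or limma-voom (11 had an unadjusted p under 0.05 by edgeR), where 0.0547% of all genes were called higher and 0.0182% lower. In Drosha 3 were called higher and none lower, 3.95% of the 76, beside 2.48% of all genes higher and 0.966% lower. In Dicer 6 were called higher and 3 lower, 11.8%, beside 7.35% higher and 3.76% lower. The double knockout label had 2 called higher and none lower, 2.63%, beside 1.98% higher and 0.902% lower. The mean of the knockouts had 3 called higher and 3 lower, 7.89%, beside 3.81% higher and 3.26% lower. These shares were near those of all genes. With DESeq2 6 of the 76 were called in Drosha, where it called 8.85% of all genes, 16 in Dicer (17.1%), 6 with the double knockout label (8.49%) and 14 in the mean (13.2%). The median log2 fold change of the 76 was -0.03 with the Dgcr8 label, 0.17 in Drosha, 0.12 in Dicer and -0.01 with the double knockout label, beside 0.02, -0.01, -0.00 and 0.04 over all genes in that order. None of the 21 cytoplasmic transducers tested was called by edgeR fitted to all 10 libraries, with 1 to 4 at an unadjusted p under 0.05 in each comparison. DESeq2 called 2 of them in Dicer, 1 with the double knockout label and 1 in the mean. With limma-voom 1 was called in Dicer, with the double knockout label, in the mean and among the knockouts. It called 9.52%, 8.58%, 8.78% and 5.10% of all genes there, in that order. With edgeR fitted to only the 2 groups compared, 4 were called in Dicer (19.1% of the 21, beside 29.5% of all genes). With the double knockout label 1 was called by that fit (4.76%, beside 4.89% of all genes).

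The feedback inhibitors Notum and Apcdd1 rose in Drosha and Dicer knockout and with the double knockout label. They are described because they were called. Of 13 secreted inhibitors listed, 6 were tested and only Notum was called. The median log2 fold change of the 6 was 0.23 in Drosha, -0.01 in Dicer and 0.30 with the double knockout label. Of 15 Wnt targets listed, 6 were tested and only Notum and Apcdd1 were called, with medians of 0.85, 1.21 and 0.49. Axin2, also a feedback inhibitor, lay below WT in these groups without a call. Notum, an extracellular enzyme that removes the lipid from Wnt proteins, had 29.2 and 90.5 CPM with the Dgcr8 label, 179 and 96.5 in Drosha, 430 and 211 in Dicer, then 284 and 261 with the double knockout label, against 24.9 and 13.7 CPM in WT. All 8 knockout libraries were above both WT libraries. Notum rose by 2.84 (SE 0.56, edgeR adjusted p 0.023) on the log2 scale in Drosha, by 4.07 (SE 0.59, adjusted p 0.0026) in Dicer and by 3.83 (SE 0.58, adjusted p 0.011) with the double knockout label. With the Dgcr8 label it was 1.62 (adjusted p 0.35). The Dicer call held in all 18 alternatives. The Drosha call was lost without Drosha replicate 1 (0.088), WT replicate 1 (0.095) or WT replicate 2 (0.24), within 8.5e-06 to 0.24. The double knockout label call was lost without WT replicate 1 (0.058) or 2 (0.17), within 2.6e-10 to 0.17.

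Apcdd1, a membrane protein that binds Wnt and Lrp proteins and inhibits the pathway, had 4.65 and 6.97 CPM with the Dgcr8 label, 18.5 and 15.7 in Drosha, 54.2 and 38.6 in Dicer, then 25.0 and 12.3 with the double knockout label, against 3.50 and 4.40 CPM in WT. The Dicer libraries were the highest, and the libraries with the Dgcr8 label the closest to WT. Apcdd1 rose by 2.10 (SE 0.45, edgeR adjusted p 0.031) in Drosha, 3.55 (SE 0.45, adjusted p 0.0018) in Dicer and 2.22 (SE 0.43, adjusted p 0.021) with the double knockout label, on the log2 scale. By edgeR it was the only one of the 76 genes to differ among the knockouts at the threshold (adjusted p 0.022). DESeq2 called 4 of the 76 among the knockouts, beside 8.9% of all genes, and limma-voom called 6, beside 5.10%. The Dicer call held in all 18 alternatives. The Drosha call was lost without Drosha replicate 1 (0.093) or 2 (0.072), Dicer replicate 2 (0.051), WT replicate 1 (0.20) or 2 (0.21), and with limma-voom (0.15), within 0.00072 to 0.21. The double knockout label call was lost without its replicate 1 (0.082) or WT replicate 1 (0.15) or 2 (0.23), within 0.00011 to 0.23.

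Of the 25 genes listed for Wnt ligands and their secretion, 5 were tested, and Wnt3a, a canonical Wnt, was called higher in Dicer knockout. It had 0.376 and 1.79 CPM with the Dgcr8 label, 4.75 and 5.68 in Drosha, 6.92 and 9.93 in Dicer, then 7.22 and 2.79 with the double knockout label, against 1.11 and 0.332 CPM in WT. The libraries of Drosha, Dicer and the double knockout label were all above WT, at low levels. The Wnt3a log2 fold change in Dicer was 3.62 (SE 0.91, edgeR adjusted p 0.027). That call was lost without Dicer replicate 1 (0.098) or 2 (0.10) or WT replicate 1 (0.069) or 2 (0.23), within 0.00087 to 0.23. With DESeq2 Wnt3a also passed in Drosha (0.023) and with the double knockout label (0.020).

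Among 17 receptors and regulators tested, Frizzled genes changed in both directions in Dicer knockout. Fzd5 had 239 and 158 CPM with the Dgcr8 label, 157 and 178 in Drosha, 151 and 98.2 in Dicer, then 288 and 166 with the double knockout label, against 423 and 448 CPM in WT, so that every knockout library was lower. It fell by 1.80 on the log2 scale in Dicer (SE 0.35, edgeR adjusted p 0.0087). Fzd6 had 11.1 and 8.97 CPM with the Dgcr8 label, 72.8 and 17.0 in Drosha, 84.4 and 39.7 in Dicer, then 36.5 and 28.4 with the double knockout label, against 9.68 and 5.97 CPM in WT. It rose by 2.52 in Drosha (SE 0.59, adjusted p 0.042) and by 3.02 in Dicer (SE 0.59, adjusted p 0.0095) on the log2 scale by edgeR, while its Drosha libraries differed widely. Fzd2 had 12.1 and 18.3 CPM with the Dgcr8 label, 13.2 and 18.8 in Drosha, 33.2 and 24.3 in Dicer, then 47.5 and 15.8 with the double knockout label, against 9.59 and 7.72 CPM in WT, and rose by 1.75 in Dicer (SE 0.50, adjusted p 0.044). Fzd8, named after its values were seen, had 15.4 and 10.5 CPM in Dicer, against 2.67 and 1.41 CPM in WT, a log2 rise of 2.71 (SE 0.79, edgeR adjusted p 0.048).

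Some Frizzled calls were lost and others gained under the alternatives. In Dicer, Fzd5 was lost without Dicer replicate 2 (0.078) or WT replicate 2 (0.073), within 2.2e-05 to 0.078. In Dicer, Fzd6 was lost without Dicer replicate 1 (0.093) or WT replicate 2 (0.12), within 4.9e-06 to 0.12. In Drosha, Fzd6 dropped to a log2 fold change of 1.13 without Drosha replicate 1 (0.26), and its call was also lost without Dicer replicate 2 (0.052) or WT replicate 1 (0.15) or 2 (0.35), with limma-voom (0.12) and in the fit of only the 2 groups compared (0.053), within 0.00054 to 0.35. For Fzd2 the call was lost without Drosha replicate 1 (0.051), Dicer replicate 1 (0.25) or 2 (0.090) or WT replicate 1 (0.15) or 2 (0.27), and with limma-voom (0.076), within 0.0012 to 0.27. For Fzd8 the losses were at 0.052, 0.25, 0.097, 0.13 and 0.31 for the same libraries and 0.067 with limma-voom, within 0.0012 to 0.31. In Drosha, Fzd5 passed in 9 of 18 alternatives, at 0.004 with DESeq2 and at 0.041 without replicate 1 or 2 of the Dgcr8 label. It also passed there at 0.036 without replicate 1 and 0.037 without replicate 2 of the double knockout label, within 0.004 to 0.30. With the double knockout label, Fzd6 passed in 7 of 18, at 0.0078 with DESeq2, 0.032 without Drosha replicate 1 and 0.022 without Drosha replicate 2, within 0.0078 to 0.52. There Fzd2 passed in 4 of 18, at 0.0081 with DESeq2 and 0.018 without replicate 2 of the double knockout label, within 0.0081 to 0.48. A difference of these genes between knockouts was not called by edgeR, so their changes are not shown to be particular to Dicer.

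**Figure D4:**
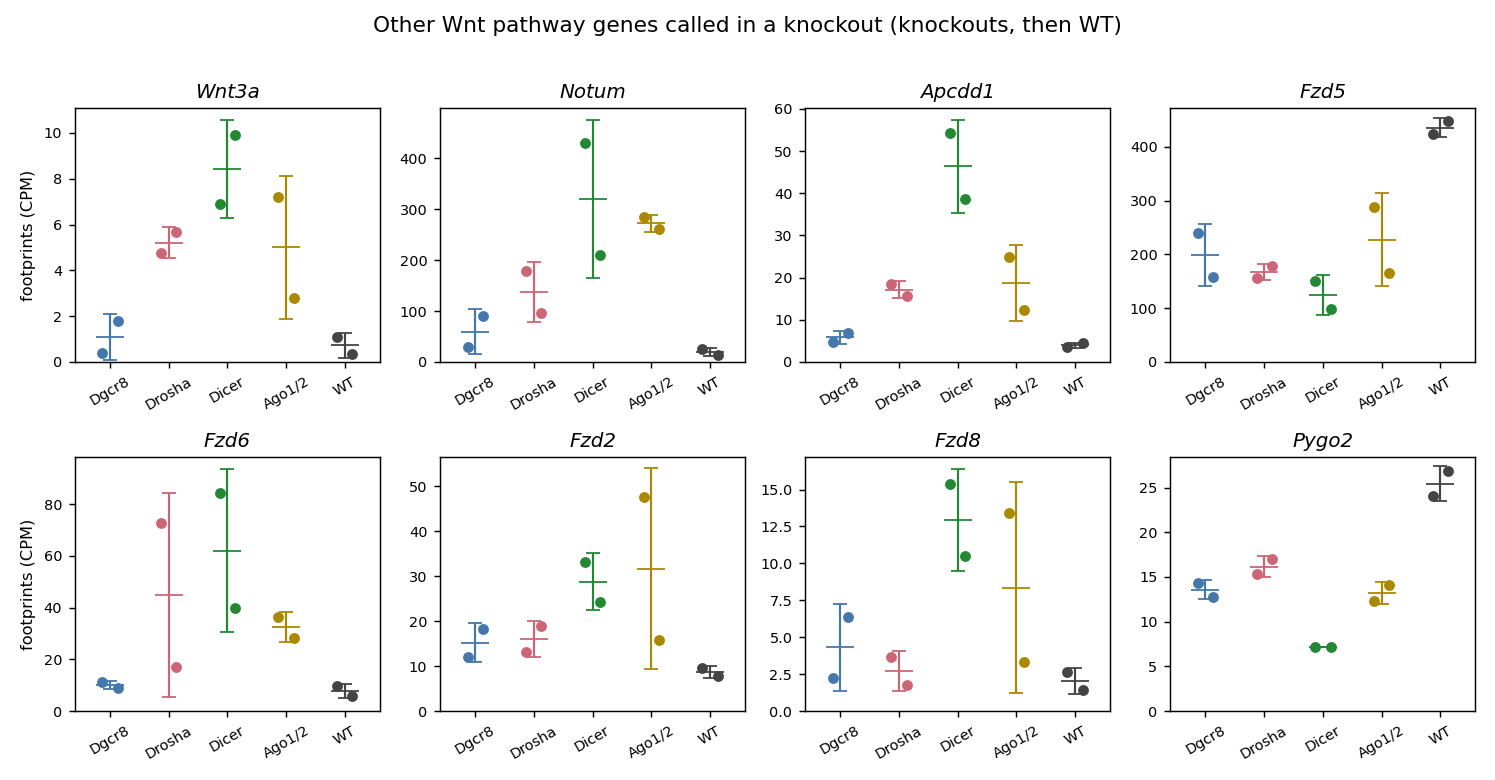
Footprints in CPM (vertical axes, each from 0) of the 8 other Wnt pathway genes called in a knockout, by group, with knockouts at the left and WT at the right. Points are libraries, the long line is the mean of 2 and bars are the SD. Notum lies above its WT libraries of 24.9 and 13.7 CPM in all 8 knockout libraries, and Fzd5 and Pygo2 lie below theirs.

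Of 14 nuclear partners of beta-catenin tested, Pygo2, a co-activator that binds methylated histone H3, was the only one called. It had 14.3 and 12.8 CPM with the Dgcr8 label, 15.3 and 17.0 in Drosha, 7.12 and 7.17 in Dicer, then 12.3 and 14.1 with the double knockout label, against 24.1 and 26.8 CPM in WT. As for Tcf7, all 8 knockout libraries were below WT and those of Dicer were the lowest. Pygo2 fell by 1.83 on the log2 scale in Dicer (SE 0.36, edgeR adjusted p 0.0088). The call was lost without Dicer replicate 1 (0.11) or 2 (0.057) or WT replicate 1 (0.053) or 2 (0.099), within 0.00025 to 0.11. Pygo2 also passed with the double knockout label with limma-voom (0.039).

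Markers of other cell types differed as well. Of the 10 trophectoderm markers listed, 5 were tested, and Cdx2, Eomes, Gata3, Elf5 and Hand1 were not. In Drosha 2 were called higher, beside 2.48% of all genes, and in Dicer 3, beside 7.35%. Dicer was the group with the most calls among the Wnt genes and also over all genes (11.1%). Krt8 had 332 and 207 CPM in Dicer, against 26.8 and 36.5 in WT, and Krt18 had 247 and 165, against 50.3 and 49.8. Their summed level was 150 and 215 CPM with the Dgcr8 label, 330 and 367 in Drosha, 693 and 503 in Dicer, then 172 and 197 with the double knockout label, against 139 and 150 CPM in WT. Fibroblast markers, 4 of 10 tested, summed to 41.4 to 173 CPM over the 8 knockout libraries, against 248 and 220 CPM in WT. In Dicer 3 were called lower, beside 3.76% of all genes. Most of the sum in WT was Thy1 (126 and 114 CPM) and Mmp2 (99.5 and 88.6 CPM). The other markers, Fbln2 and Col6a2, were above WT with the double knockout label. Fbln2 had 29.3 and 19.9 CPM there, against 14.1 and 10.2 in WT, and Col6a2 had 8.77 and 17.5, against 7.56 and 6.76. The part of other cell types in the levels of the Wnt genes was not tested.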

How the data were processed

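Ribosome footprints of E14 cells were analysed in 10 libraries, 2 per genotype. The authors deposited whole-number counts per gene, not normalized. The submitters' processing notes name Bowtie2 and Trimmomatic, the mouse build mm10 (GRCm38) and the fly build dm6. The counting tool, annotation and strand setting are not given in the sources used here, so overlapping, antisense and closely paralogous genes may share reads. The columns labelled double knockout carry other replicate numbers than the titles, and the titles' numbers were used. Depth ran between 1754710 and 80850950 counts.

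The analysis used edgeR 4.0.16 under R 4.3.3: TMM scaling, filterByExpr with 5 groups (10978 of 11011 genes kept), 1 mean per group, the quasi-likelihood F test, 2-sided, and Benjamini-Hochberg adjustment over all genes tested, at 0.05. The SE is the absolute log2 change over the square root of F. CPM used scaled library sizes, and CPM per kb the longest coding sequence in GENCODE M21; whether reads outside it were counted is not known. Floors are 3 counts and intervals are exact at 95%. Alternatives were other scalings, no filter, DESeq2 1.42.0, limma-voom (limma 3.58.1), a replicate block, fits of only 2 groups and each library left out. The labels do not say whether replicates were separate cultures, so the tests reflect only how these samples vary, which may be technical. The members and lists were chosen with earlier results of these data known. All members were named, with the 3 smallest adjusted p per other Wnt list and comparison, the 5 genes closest to Dkk1 (predicted genes left out) and the targeted genes. Of 10 listed genes in each, 3 neuroectoderm and 1 primitive streak marker were tested, too few to describe.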

Additional observations from a re-analysis of the deposited data

How the results depend on the processing

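Relative to 8 genes called with the Dgcr8 label, 378 in Drosha, 1220 in Dicer, 316 with the double knockout label, 776 in the mean of the knockouts and 245 among the knockouts, DESeq2 called 160, 972, 1874, 932, 1444 and 977. With limma-voom 15 were called with the Dgcr8 label, 111 in Drosha, 942 with the double knockout label and 560 among the knockouts. With only the 2 groups compared 0 were called with the Dgcr8 label (edgeR, 1335 at an unadjusted p under 0.05), 3224 in Dicer and 536 with the double knockout label, and the mean without the Dgcr8 label called 1165. RLE scaling, total counts and no filter kept every count within 1.5 times.

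The replicate numbers were not taken as pairs, since the labels state no shared culture or day and there are only 2 numbers; deviations of same-numbered libraries correlated at 0.061 to 0.287 over 10 pairs of groups, 9 of them over 0.1. With the replicate block 14, 770, 1877, 738, 1410 and 586 genes were called in the order above. Under this block Dkk1 passed in Drosha (adjusted p 0.028), Dicer (0.015) and the double knockout label (0.015), Fzd7 in Dicer (0.045) and the mean (0.046), Tcf7l1 in Dicer (0.047) and the mean (0.049), Fzd5 in Drosha (0.016), and Fzd6 (0.013) and Fzd2 (0.045) with the double knockout label. A block by runs of library numbers in the column names, chosen after seeing the data, called 33, 951, 2168, 698, 1634 and 613.

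Leaving out 1 library gave 0 to 107 genes with the Dgcr8 label, 1 to 514 in Drosha, 139 to 1503 in Dicer, 3 to 494 with the double knockout label, 3 to 1100 in the mean and 22 to 400 among the knockouts. The sign of some changes that passed no test turned among these fits. With the Dgcr8 label the log2 change ran between -0.077 and 0.094 for Axin1, -0.22 and 0.15 for Ctnnb1 and -0.82 and 1.42 for Wnt3a, which was also -0.25 with limma-voom. In Drosha it ran between -0.13 and 0.53 for Lrp6 and -0.19 and 0.92 for Fzd8, and in Dicer between -0.48 and 0.14 for Axin1. With the double knockout label it ran between -0.12 and 0.10 for Axin1, -0.036 and 0.54 for Apc and -0.44 and 0.90 for Ago1. The cause was not tested. Seed matches stood in 7 of 9 members with any annotated UTR. Depth limits Dkk1 most in the Drosha libraries and Dicer replicate 2.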
